A study of Mus musculus with 12 samples.

Results

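Small intestine (SI)-derived and large intestine (LI)-derived monolayers of murine epithelium were compared by RNA sequencing after 24 h of culture, with 3 libraries of SI monolayers and 3 libraries of LI monolayers out of 12 libraries in the series. The members are all genes that passed an expression filter, which left 19581 of 55487 genes in the count table, and the 6 libraries were chosen by their labels. The other 6 libraries were freshly isolated crypts of both regions (SI tissue and LI tissue, 3 mice and 3 libraries each), which serve here as the regional difference before culture. The crypts came from male or female C57BL/6 mice aged 6 to 10 weeks, with no transgene or deletion named. For SI monolayers, crypts were released from the jejunum with EDTA. For LI monolayers, crypts of the whole large intestine were first digested with collagenase, dispase and DNase, so the region and the enzymatic digestion cannot be told apart. The isolation of the fresh crypts for sequencing is not described separately, so the same may hold for the tissue libraries. Both kinds of crypts were seeded as fragments on Matrigel in a medium with a GSK3 inhibitor, a BMP receptor inhibitor, a ROCK inhibitor, EGF, R-spondin-1 and Wnt3a, and were then grown in Wnt3a, EGF, Noggin and R-spondin-1, without any drug. RNA was collected from pooled wells, and the sources do not say whether the 3 pools of a region came from separate mice. Both regions were cultured from shared mice, and no label ties a library to a mouse, so SI and LI libraries may hold material of the same animals. The spread between pools may therefore be technical. Unless stated otherwise, all 12 libraries were fitted together, so the p-values also carry the spread between the mice of the fresh crypts.

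The epithelium of the intestine is a sheet renewed from stem cells in crypts. In the small intestine it carries villi, digests and absorbs nutrients, and keeps Paneth cells at the crypt base, whereas the large intestine has a flat surface, takes up sodium and water, and secretes mucus from many goblet cells. Transcription factors of the GATA and HNF4 families are known for the small intestinal program, and the posterior HOX genes for the colon. The study grew the monolayers of both regions to measure the toxicity of oncology drugs, and uptake carriers, drug-metabolizing enzymes and growth factor receptors are the points at which such drugs meet the epithelium.

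Values are in CPM, counts per 1000000 counts of a library total scaled by TMM, and are not corrected for gene length, so levels are compared between libraries and not between genes. Log2 fold changes are SI over LI, so a negative value means a higher level in LI monolayers. A gene was called when its adjusted p-value in edgeR's quasi-likelihood test was under 0.05 and its absolute log2 fold change was at least 1. The 6 libraries held 59016196 to 71963600 counts, which puts 3 counts at 0.0407 to 0.0512 CPM. Mitochondrially encoded genes took 0.472% to 0.559% of the counts in SI monolayers and 0.704% to 0.750% in LI monolayers. The rarer transcripts of the opposite region varied between libraries of a group. Car1, for example, a carbonic anhydrase of the colon, had 8.63, 1.901 and 0.39 CPM in the SI libraries and 39.4, 39.5 and 46.6 CPM in the LI libraries. Olfm4, a stem cell marker of the small intestine, had 20.1, 17.8 and 17.4 CPM in the SI libraries and 0.058, 4.06 and 2.62 CPM in the LI libraries. The Car1 call was lost without SI replicate 2. In bulk RNA, fewer cells of a type and less RNA per cell cannot be told apart.

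Of the 19581 tested genes, 4159 (21.2%) were called, 2420 (12.4%) of them with a higher level in SI monolayers and 1739 (8.88%) with a higher level in LI monolayers. The median log2 fold change of all tested genes was 0.02. Among the genes higher in SI, 1357 differed by a log2 fold change of at least 2, 456 by at least 4 and 126 by at least 6. Among those higher in LI, the corresponding counts were 851, 275 and 78. The higher group had a mean of at least 10 CPM for 844 of the genes higher in SI and for 692 of the genes higher in LI, so a large part of the calls concerned rare transcripts. Without a minimum fold change, 10145 genes (51.8%) passed, and the libraries of the groups did not overlap for 12212 genes (62.4%). The counts of the gene lists given further on are to be read against these shares of all genes.

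**Figure D1:**
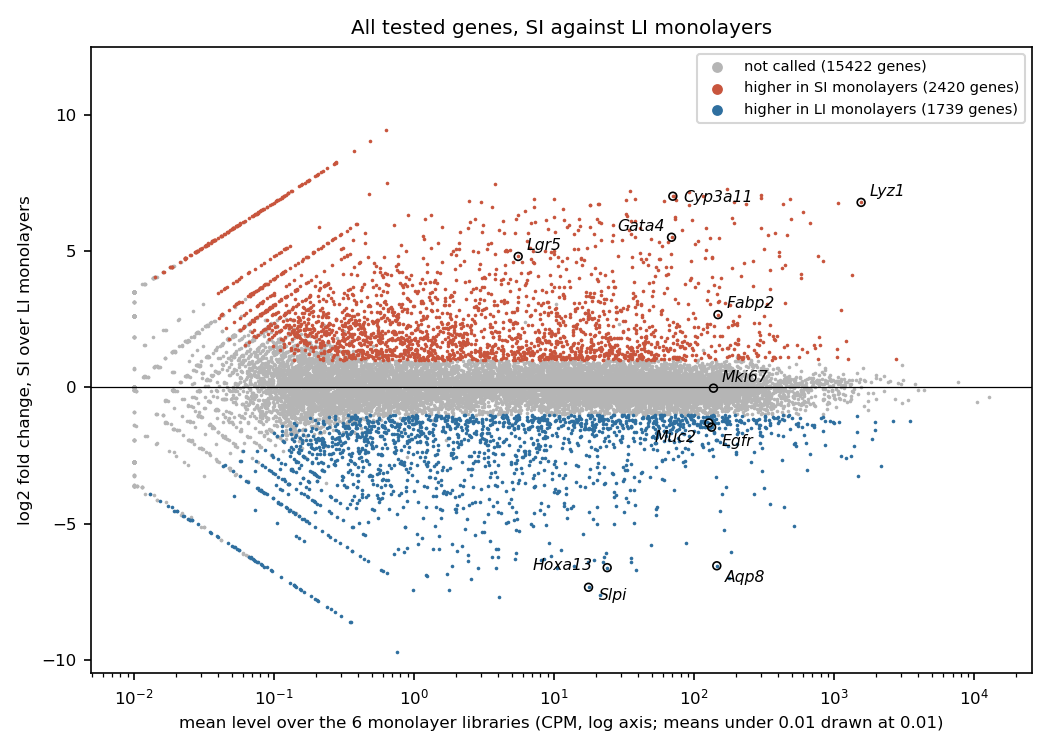
Log2 fold change of each tested gene in SI over LI monolayers (vertical axis) against its mean level over the 6 libraries in CPM (horizontal log axis), with called genes in red (2420 higher in SI) and blue (1739 higher in LI) and 15422 genes not called in grey. Circled genes are named in the text, and Mki67 lies near 0 while Cyp3a11, Lyz1 and Gata4 lie far above it and Aqp8, Slpi and Hoxa13 far below.

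The 10 genes with the largest fold change in each direction, at a mean of at least 10 CPM in the higher group, were as follows. Towards SI they were the drug-oxidizing cytochromes Cyp2c29, Cyp2c66 and Cyp3a11, the Paneth cell defensins Defa2, Defa5, Defa21, Defa22 and Defa34, the gene model Gm15293 and the GTPase-related gene Gimd1. Cyp2c29 (ENSMUSG00000003053.17, chr19:39269405-39330713) had 369.6, 333 and 326 CPM in the SI libraries and 2.26, 1.96 and 2.32 CPM in the LI libraries, a log2 fold change of 7.29 ± 0.68 (SE) with an adjusted p of 2.29e-05 (edgeR). Gimd1 had 69.1, 72.8 and 66.2 CPM in the SI libraries and 0.319, 0.546 and 0.53 CPM in the LI libraries, a log2 fold change of 7.23 ± 0.32 (SE). The α-defensin genes are near-identical copies of each other, as are many Cyp2c and Cyp3a genes, so reads may have been split among copies and their single values are uncertain. Towards LI the largest changes were those of Tgm7, Slpi, Atp12a, Foxd2, Hoxa13, Crnn, Aqp8, Sprr2h, Sycn and Cxcl5. Tgm7 (ENSMUSG00000079103.3, chr2:121093565-121109795), a transglutaminase, had 0.175, 0.244 and 0.223 CPM in the SI libraries and 43.1, 40.9 and 43.4 CPM in the LI libraries, a log2 fold change of -7.61 ± 0.35 (SE). Slpi, a secreted protease inhibitor of mucosal surfaces, had 0.131, 0.231 and 0.279 CPM in the SI libraries and 40.6, 31.9 and 32.6 CPM in the LI libraries, a log2 fold change of -7.34 ± 0.30 (SE). Foxd2, a forkhead transcription factor, had 0.86, 0.747 and 0.613 CPM in the SI libraries and 80.1, 78.3 and 71.2 CPM in the LI libraries. For each of these genes every library of the higher group lay above every library of the other group.

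The labelled cell type was checked with epithelial genes. Cdh1, the adhesion molecule E-cadherin, had 1685, 1709 and 1736 CPM in the SI libraries and 2205, 2334 and 2362 CPM in the LI libraries. Epcam had 1241, 1259 and 1298 CPM in the SI libraries and 1426, 1408 and 1373 CPM in the LI libraries. Vil1, the microvillus protein villin, had 1318, 1323 and 1367 CPM in the SI libraries and 934, 969 and 978 CPM in the LI libraries. Each of the 3 genes was abundant in all 6 libraries, and none was called at the minimum fold change (log2 fold changes -0.43, -0.15 and 0.48, of which edgeR's adjusted p alone was under 0.05). The 12 mesenchymal genes summed to 30.8 to 47.6 CPM in SI monolayers and 90.6 to 124 CPM in LI monolayers, with 9 of 12 higher in LI and a median log2 fold change of -1.43. Lum, a matrix gene of fibroblasts, had 0.0292, 0.0272 and 0.0836 CPM in the SI libraries and 1.28, 2.15 and 1.62 CPM in the LI libraries. Pdgfra, a receptor of fibroblasts, had 0.146, 0.136 and 0.293 CPM in the SI libraries and 3.67, 4.68 and 3.33 CPM in the LI libraries. Both were present in every library, at low levels and higher in each LI library than in any SI library. Of 9 tested endothelial genes 4 were higher in LI and 1 in SI, while their sums overlapped, at 7.496 to 8.73 CPM in SI and 6.73 to 8.38 CPM in LI. Cdh5, the cadherin of vessels, was at 0 in all SI libraries and at 0.406, 0.786 and 0.618 CPM in the LI libraries, which is at least 43.0-fold higher in LI when 3 counts over the SI group are taken as its limit. The smooth muscle list had 2 genes higher in LI and 1 higher in SI of 9, and its sum was higher in SI, at 50.8 to 52.3 CPM against 20.6 to 23.9 CPM in LI. That sum came mainly from Mylk, a myosin light chain kinase, with 50.5, 48.7 and 49.3 CPM in the SI libraries and 16.9, 18.3 and 16.01 CPM in the LI libraries. Acta2, smooth muscle actin and one of those higher in LI with 0.408, 0.679 and 0.864 CPM in the SI libraries and 2.87, 3.71 and 2.78 CPM in the LI libraries, lost its call in each of the 6 fits without 1 library. No neural or glial gene of 10 was called by edgeR, 1 had an unadjusted p under 0.05, and DESeq2 called 0. The part of these cells in the genes higher in LI was not tested.

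Immune markers went mostly the other way, with 9 of 17 tested genes higher in SI, 2 higher in LI and a median of 1.67. All 6 T cell genes were higher in SI (median 2.69), and Cd8a, the co-receptor of cytotoxic T cells, had 2.93, 2.61 and 2.17 CPM in the SI libraries and 0.319, 0.615 and 0.353 CPM in the LI libraries. The summed level of the list, 59.6 to 66.7 CPM in SI and 5.06 to 7.82 CPM in LI, came mainly from Lyz2, the lysozyme of myeloid cells, with 43.8, 38.6 and 41.5 CPM in the SI libraries and 0.652, 0.581 and 0.603 CPM in the LI libraries. Lyz2 is a close copy of Lyz1, the Paneth cell lysozyme, and reads could not be assigned with certainty between them. Of the B cell genes Cd79a was called higher in LI, with 0, 0 and 0.0279 CPM in the SI libraries and 0.348, 0.307 and 0.0589 CPM in the LI libraries, and it kept its call only without LI replicate 3 among the 6 fits without 1 library. A list of 10 tested squamous epithelial genes, which would mark the skin-like lining of the anal canal, had 3 genes higher in LI and summed to 382 to 408 CPM in SI and 1160 to 1400 CPM in LI. In fresh crypts the same list summed to only 8.86 to 11.3 CPM in SI tissue and 16.1 to 25.3 CPM in LI tissue, so its level was higher in the monolayers of both regions. Lor, which codes for loricrin of the cornified envelope, had 45.5, 46.6 and 45.5 CPM in the SI libraries and 495, 552 and 714 CPM in the LI libraries. The basal keratins that pair in squamous epithelium did not go together. Krt14 had 1.31, 1.44 and 1.46 CPM in the SI libraries and 4.55, 4.46 and 4.94 CPM in the LI libraries and was higher in LI, at a log2 fold change of -1.73 ± 0.19 (SE) (adjusted p = 1.08e-06, edgeR). Krt5 had 0.146, 0.516 and 0.46 CPM in the SI libraries and 0.145, 0.0512 and 0.221 CPM in the LI libraries and was not called (log2 fold change 1.402, adjusted p = 0.0916, edgeR). The part of squamous cells in the genes higher in LI was not tested.

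Among the transcription factors that mark gut regions, 8 of 21 tested were higher in SI monolayers and 1 in LI monolayers, with a median log2 fold change of 0.71. Gata4 (ENSMUSG00000021944.15, chr14:63198922-63271692), the GATA factor of the proximal small intestine, had 133, 134 and 139 CPM in the SI libraries and 2.72, 3.21 and 2.94 CPM in the LI libraries, a log2 fold change of 5.51 ± 0.25 (SE) (adjusted p = 6.01e-08, edgeR). Its relative Gata5 had 64.7, 69.5 and 67.998 CPM in the SI libraries and 1.03, 1.21 and 1.46 CPM in the LI libraries. Gata6, which is present along the whole tract, had 89.5, 87.3 and 86.8 CPM in the SI libraries and 75.6, 80.2 and 80.3 CPM in the LI libraries and a log2 fold change of 0.16. The groups did not overlap for any of the 3 genes, but they lay far apart only for Gata4 and Gata5. Hnf4g, a nuclear receptor that drives enterocyte genes, had 181, 175 and 179 CPM in the SI libraries and 10.3, 11.7 and 11.3 CPM in the LI libraries, a log2 fold change of 4.01 ± 0.08 (SE). Its paralog Hnf4a had 1024, 1034 and 1068 CPM in the SI libraries and 678, 671 and 671 CPM in the LI libraries, with groups that did not overlap but a log2 fold change of 0.63, under the threshold. Creb3l3, which controls lipid genes, Onecut2, Maf and the rare Pdx1 and Onecut3 completed the factors higher in SI, at log2 fold changes of 2.62 to 5.13. Cdx1 and Cdx2, the caudal factors that both regions share, had log2 fold changes of 0.71 and 0.72 and were not called.

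Foxa1, Foxa2, Klf4 and Klf5 lay between -0.56 and -0.400 and none of the 4 was called. In the fresh crypts the log2 fold changes were 6.37 for Gata4 and 3.39 for Hnf4g, and the difference between monolayers and tissue (-0.85 and 0.62) did not reach the threshold for a call for either gene.

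**Figure D2:**
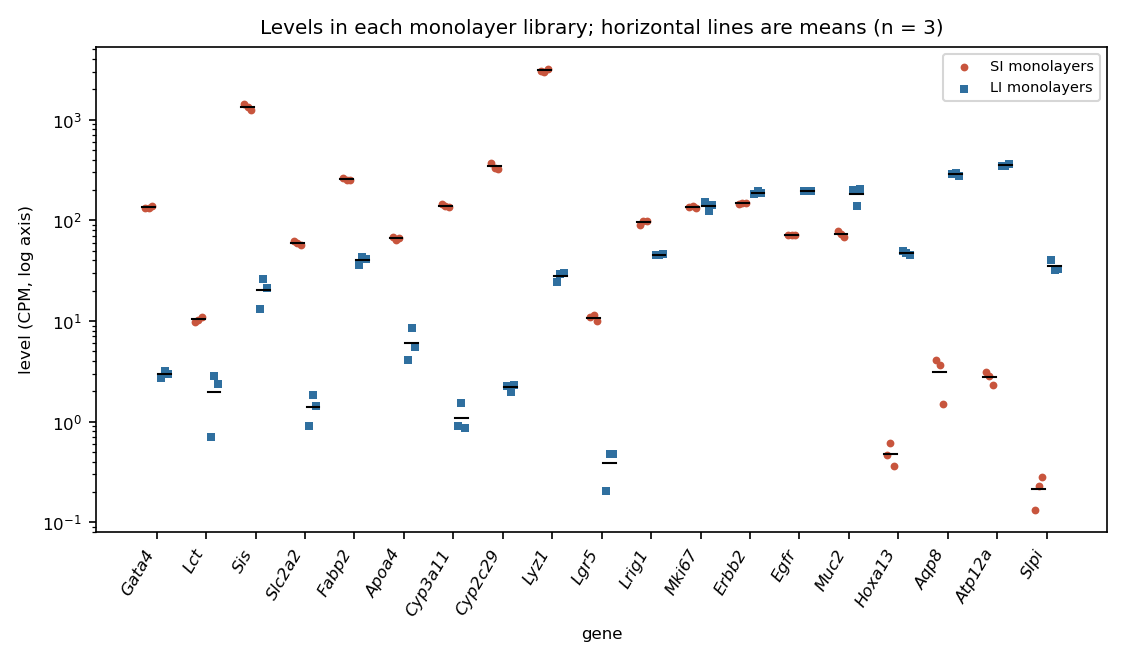
Level in CPM (log axis) of 19 genes in each of the 3 SI (red circles) and 3 LI (blue squares) monolayer libraries, with a line at each mean; levels are comparable between libraries for 1 gene, not between genes. Gata4, Cyp3a11 and Lyz1 differ by far more than the spread between libraries, and Mki67 overlaps between the groups. The LI libraries scatter widely for Lct, as do the SI libraries for Aqp8.

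The Hox genes, which set position along the body axis and are read out in order along the gut, formed a one-sided list. Of 29 tested members 24 were higher in LI monolayers and 5 were not called, against 8.88% of all tested genes higher in LI, and the median log2 fold change was -3.41. Summed over the list, SI monolayers held 8.85 to 11.7 CPM and LI monolayers 236 to 248 CPM. Hoxa13 (ENSMUSG00000038203.18, chr6:52257694-52260880), the last member of its cluster, had 0.467, 0.611 and 0.362 CPM in the SI libraries and 49.4, 47.8 and 45.1 CPM in the LI libraries, a log2 fold change of -6.62 ± 0.32 (SE). Hoxa10 had 0.598, 0.625 and 0.195 CPM in the SI libraries and 38.5, 38.8 and 37.6 CPM in the LI libraries. Hoxb13 and Hoxd13 had log2 fold changes of -6.08 and -6.32. In SI libraries these posterior genes lay at about 1 CPM or less, and the groups did not overlap.

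Members of paralog groups 9 to 13 had a median log2 fold change of -5.41 (12 tested, 11 called) and those of groups 1 to 8 a median of -2.78 (17 tested, 13 called). Within the Hoxa cluster the values did not fall steadily. Hoxa2 and Hoxa3 lay at -1.79 and -2.43, Hoxa4 was not called at -0.704, Hoxa5 lay at -3.65, and Hoxa6 to Hoxa13 lay between -6.69 and -5.97. In the Hoxb cluster, Hoxb2 to Hoxb8 lay between -3.003 and -0.12, with Hoxb2 and Hoxb4 not called, and Hoxb9 and Hoxb13 at -3.86 and -6.08. Hoxb4 (0.729, 0.815 and 1.11 CPM in SI and 0.899, 1.195 and 0.809 CPM in LI) had overlapping libraries. Hoxc8 and Hoxc10, the tested members of the Hoxc cluster, stayed under 0.35 CPM in every library. Hoxd12 was at 0 in all SI libraries and, at 0.116, 0.0342 and 0 CPM in the LI libraries, at least 3.57-fold higher in LI, a call lost without LI replicate 1 and without any of the SI replicates. Neighbouring Hox genes overlap with antisense transcripts, and the strand setting of the counting is not given in the sources used here. Fibroblasts also express Hox genes. The mesenchymal genes moved in the same direction, with the sums given above and log2 fold changes of -5.11 for Lum and -4.33 for Pdgfra, and their part in the Hox values was not tested.

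**Figure D3:**
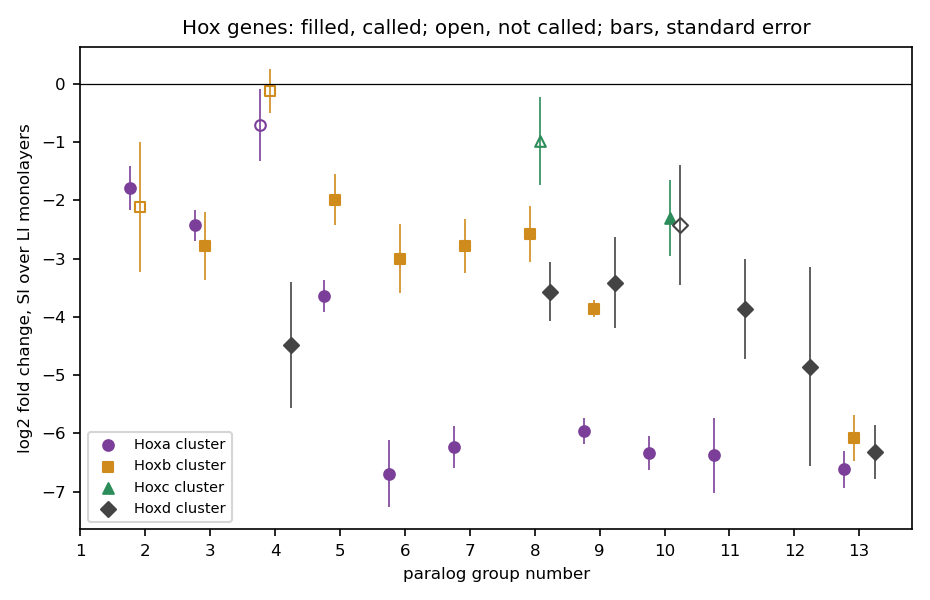
Log2 fold change of tested Hox genes, SI over LI monolayers (vertical axis, bars are standard errors), by paralog group number (horizontal axis) and cluster (symbol). Filled symbols are called genes, and 11 of the 12 genes of groups 9 to 13 are filled, all at -2.30 or lower.

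Because GATA and HNF4 factors stood out among the regulators, the 250 bases before the start of each gene (RefSeq, GRCm38.p6) were searched on both strands for short letter runs that these and other factors are known to recognize. A start was on hand for 12623 tested genes. The GATA letters AGATAA or TGATAA stood before 10.3% of all these genes, 16.3% of those higher in SI (268 of 1646), 28.0% of those with a log2 fold change of at least 4 (84 of 300) and 10.6% of those higher in LI (127 of 1202). Without the defensin genes, whose promoters are near copies, the share at a log2 fold change of at least 4 was 25.3% (73 of 288). The HNF4 letters CAAAGTCCA stood before 0.412% of all genes, 1.34% of those higher in SI, 9 of the 300 with a log2 fold change of at least 4 and 0.416% of those higher in LI. The CDX letters TTTATNG or TTTACNA were found before 11.5% of all genes, 24.7% of those far higher in SI and 24.0% of those far higher in LI (log2 fold change of at most -4). The AP-1 letters TGANTCA were found before 5.09% of all genes, 27 of the 300 far higher in SI and 22 of the 183 far higher in LI. Among genes far from 0, the GATA letters thus stood before 28.0% on the SI side and 12.6% on the LI side, whereas the CDX letters stood before similar shares on both sides.

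The base composition of the promoters moved with these shares. The median G+C content was 58.8% over all genes, 49.6% for those far higher in SI and 52.4% for those far higher in LI. Within promoters of 40% to 45% G+C the GATA letters stood before 49.1% of the genes far higher in SI (26 of 53), 21.2% of those far higher in LI (7 of 33) and 28.3% of all genes. Within 45% to 50% they stood before 32.8% (21 of 64), 16.1% (5 of 31) and 19.6%, and without the defensin genes the SI shares in these bins were 22 of 49 and 14 of 56. Under 40% G+C the shares were 42.9% (15 of 35), 23.1% (3 of 13) and 41.3%. In the richer promoters, which held 148 of the 300 genes far higher in SI, the shares lay closer together in percentage points. Within 50% to 55% they were 23.2% (16 of 69), 6 of 30 and 15.2%, and over all called genes 19.2% for those higher in SI and 19.9% for those higher in LI. From 55% upwards they were 7.59% (6 of 79), 2.63% (2 of 76) and 4.63%. These shares describe letters and not binding. The sequences shown here are those of genes higher in SI from 3 functions (a sugar carrier, a hormone and a pair of drug-oxidizing enzymes), each read 5′ to 3′ on the strand of its gene and ending at the base before the start. These examples were picked by hand, each holds a match, and they are not typical. GATA letters stood before 28.0% of the genes far higher in SI, and HNF4 letters before 9 of 300. Slc2a2 (chr3:28697653-28697902, plus strand) has its match 156 bases before the start, Gip (chr11:96024295-96024544, plus strand) has matches 188 and 69 bases before it, and Cyp2c29 (chr19:39286835-39287084, plus strand) has matches 218, 127 and 92 bases before it, with GATA letters in capitals. Cyp3a11 (chr5:145879855-145880104, minus strand) has no GATA letters in this window, and the HNF4 letters 109 bases before the start are in capitals. For Cyp2c29 and Cyp3a11 the RefSeq start used here differs from the GENCODE gene bounds printed in this text. The Cyp2c29 window lies within those bounds. The Cyp3a11 window overlaps with them, and its HNF4 letters lie inside the GENCODE gene.
Slc2a2: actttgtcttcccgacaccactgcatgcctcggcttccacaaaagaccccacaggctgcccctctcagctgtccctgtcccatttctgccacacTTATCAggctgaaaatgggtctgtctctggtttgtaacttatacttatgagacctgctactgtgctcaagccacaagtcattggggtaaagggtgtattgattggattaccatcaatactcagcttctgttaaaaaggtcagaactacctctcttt
Gip: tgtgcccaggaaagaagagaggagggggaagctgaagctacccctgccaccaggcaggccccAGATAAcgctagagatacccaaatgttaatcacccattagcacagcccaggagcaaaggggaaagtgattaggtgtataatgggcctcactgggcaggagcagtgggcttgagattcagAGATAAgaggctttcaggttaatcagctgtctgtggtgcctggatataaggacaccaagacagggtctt
Cyp2c29: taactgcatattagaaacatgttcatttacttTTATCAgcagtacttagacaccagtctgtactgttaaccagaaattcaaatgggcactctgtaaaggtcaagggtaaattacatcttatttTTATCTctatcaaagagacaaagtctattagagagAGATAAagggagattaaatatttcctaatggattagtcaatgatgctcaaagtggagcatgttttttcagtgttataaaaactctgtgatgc
Cyp3a11: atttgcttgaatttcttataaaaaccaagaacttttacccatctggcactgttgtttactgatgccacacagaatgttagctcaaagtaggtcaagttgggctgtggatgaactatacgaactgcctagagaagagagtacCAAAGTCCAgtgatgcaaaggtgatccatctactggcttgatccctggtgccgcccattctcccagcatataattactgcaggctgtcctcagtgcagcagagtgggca

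Sugar digestion and uptake was among the lists with the largest SI excess. Of 18 tested genes 15 were higher in SI monolayers and 1 in LI monolayers, with a median log2 fold change of 4.13. Sis (ENSMUSG00000027790.14, chr3:72888557-72967863), the brush border enzyme sucrase-isomaltase, had 1421, 1339.9 and 1242 CPM in the SI libraries and 13.1, 26.3 and 21.2 CPM in the LI libraries, a log2 fold change of 6.05 ± 0.76 (SE) (adjusted p = 0.000157, edgeR). Slc2a2, the glucose carrier with the GATA letters shown above, had 61.8, 59.97 and 56.8 CPM in the SI libraries and 0.899, 1.84 and 1.44 CPM in the LI libraries. Slc5a1, the sodium-glucose cotransporter of the brush border, had 497, 471 and 492 CPM in the SI libraries and 29.1, 42.5 and 37.8 CPM in the LI libraries. Of the genes that handle fructose, the log2 fold changes were 3.41 for the carrier Slc2a5, 4.43 for ketohexokinase, 4.11 for aldolase B and 4.63 for Tkfc. Lct, the brush border lactase, had 9.8003, 10.3 and 10.9 CPM in the SI libraries and 0.696, 2.85 and 2.38 CPM in the LI libraries and was not called (log2 fold change 2.404 ± 0.89 (SE), adjusted p = 0.0503, edgeR), but it was called with only the monolayers in the fit (adjusted p = 0.0102), with at least 10 counts per monolayer library (adjusted p = 0.0425) and with halved counts (adjusted p = 0.0346). In fresh crypts its log2 fold change was 8.802, and the difference between the contrasts, -6.398, was called. All SI libraries lay above all LI libraries for each of these genes, and LI replicate 1 was the lowest of its group for Sis, Slc2a2, Slc5a1 and Lct. The exception of the list was Pck1, which codes for the gluconeogenic enzyme PEPCK and had 0.904, 0.733 and 0.334 CPM in the SI libraries and 2.93, 2.73 and 2.91 CPM in the LI libraries.

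Peptide and amino acid digestion and uptake followed, with 19 of 24 genes higher in SI, 1 higher in LI and a median of 3.13. The brush border peptidases Enpep, Anpep, Mme and Dpp4 had log2 fold changes of 5.49, 4.82, 4.79 and 3.45. Anpep, aminopeptidase N, had 761, 792 and 775 CPM in the SI libraries and 18.4, 34.5 and 29.7 CPM in the LI libraries. Slc15a1, the carrier of dipeptides and of some peptide-like drugs, had 11.8, 11.04 and 11.9 CPM in the SI libraries and 1.13, 2.19 and 2.28 CPM in the LI libraries. Slc6a19, the carrier of neutral amino acids, had 31.4, 33.2 and 33.2 CPM in the SI libraries and 2.96, 3.48 and 3.06 CPM in the LI libraries. The groups did not overlap for any of these genes. Meprin subunits split, as Mep1b was higher in SI (1.91) and Mep1a was not called (-0.98). The gene higher in LI was Slc6a14, a carrier of neutral and cationic amino acids known from the distal gut, with 5.34, 6.95 and 4.24 CPM in the SI libraries and 352, 374 and 361 CPM in the LI libraries and a log2 fold change of -6.04 ± 0.28 (SE) (adjusted p = 1.09e-07, edgeR).

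Lipid absorption had 17 of 22 genes higher in SI, 2 higher in LI and a median of 3.33. Mttp, which loads lipid onto nascent chylomicrons, had 902, 887 and 896 CPM in the SI libraries and 14.5, 22.4 and 19.2 CPM in the LI libraries, a log2 fold change of 5.58 ± 0.53 (SE). The cholesterol carriers Npc1l1, Abcg5 and Abcg8 had log2 fold changes of 5.26, 5.35 and 5.34. Apoa1, an apolipoprotein of chylomicrons and high-density lipoprotein, had 1498, 1477 and 1476 CPM in the SI libraries and 43.97, 57.8 and 54.03 CPM in the LI libraries. Apob, the structural protein of chylomicrons, had 494, 500.3 and 455 CPM in the SI libraries and 104, 85.04 and 94.6 CPM in the LI libraries. Each SI library exceeded each LI library for these genes, and the related Apoa4 had a log2 fold change of 3.47 ± 0.78 (SE). The fatty acid binding protein genes differed in size, since Fabp1 had a log2 fold change of 4.11 ± 0.81 (SE) and Fabp2 one of 2.67 ± 0.29 (SE). Cd36, a fatty acid receptor, was low in the monolayers, where the libraries overlapped (1.05, 0.489 and 0.724 CPM in SI and 0.783, 0.444 and 0.265 CPM in LI), while its log2 fold change in fresh crypts was 7.04. Higher in LI were Plin2, the coat protein of lipid droplets, with 57.1, 60.2 and 61.3 CPM in the SI libraries and 249, 232 and 204 CPM in the LI libraries, and the lipoprotein receptor Scarb1 (-1.45).

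Bile acid genes were mixed, with 4 of 10 higher in SI and 1 in LI (median 0.81). Abcc2, which exports conjugated bile pigments and drugs, had 242, 239 and 234 CPM in the SI libraries and 3.61, 4.66 and 4.21 CPM in the LI libraries, a log2 fold change of 5.84 ± 0.36 (SE). Nr0b2, a repressor induced by bile acids, was at 0 in all LI libraries and at 0.306, 0.149 and 0.474 CPM in the SI libraries, at least 20.2-fold higher in SI. Slc51a, a subunit of the basolateral exporter, had a log2 fold change of 3.87 while its partner Slc51b was not called (0.26). Slc10a2, the bile acid carrier of the ileum, had 94.5, 93.8 and 88.2 CPM in the SI libraries and 79.5, 88.03 and 85.6 CPM in the LI libraries. This difference was smaller than its standard error, which also carries the spread of the fresh crypts (log2 fold change 0.13 ± 0.52 (SE), adjusted p = 0.871, edgeR). Gpbar1, a bile acid receptor, was the gene higher in LI, with 0.219, 0.109 and 0.209 CPM in the SI libraries and 0.768, 0.837 and 0.309 CPM in the LI libraries, and it kept its call only without LI replicate 3 or SI replicate 1.

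Of 31 vitamin and mineral uptake genes 14 were higher in SI and 2 in LI, with a median of 0.72. Cybrd1, the duodenal iron reductase, had 50.1, 50.9 and 53.97 CPM in the SI libraries and 1.01, 1.16 and 1.001 CPM in the LI libraries. Rbp2, the retinol binding protein of enterocytes, had 258, 262 and 253 CPM in the SI libraries and 5.62, 13.2 and 10.2 CPM in the LI libraries. Each SI library exceeded each LI library for both. Vdr, the vitamin D receptor, had 113, 117 and 118 CPM in the SI libraries and 34.9, 34.8 and 34.8 CPM in the LI libraries. S100g, a calcium binding protein and target of this receptor, had 43.6, 35.7 and 39.9 CPM in the SI libraries and 3.39, 3.31 and 3.53 CPM in the LI libraries. Both were higher in SI than in LI monolayers, whereas neither was higher in SI than in LI in fresh crypts (-0.12 and -1.06), and the interaction was called for both (1.85 and 4.602). Slc39a5 (4.601) and Slc39a4 (-1.305), zinc carriers of the same family, lay in opposite directions. The iron storage subunits differed, since Ftl1 was called (1.13) and Fth1 was not (adjusted p = 0.99, edgeR). For the folate carriers, which also take up antifolate drugs, Slc46a1 (ENSMUSG00000020829.9, chr11:78465697-78472059) had 10.005, 10.9 and 11.3 CPM in the SI libraries and 26.7, 29.01 and 28.7 CPM in the LI libraries, a log2 fold change of -1.39 ± 0.23 (SE) (adjusted p = 0.000599, edgeR), and was higher in each LI library than in any SI library. Slc19a1, the reduced folate carrier, had 37.2, 42.3 and 39.04 CPM in the SI libraries and 31.9, 33.7 and 35.9 CPM in the LI libraries and was not called (log2 fold change 0.22 ± 0.10 (SE), adjusted p = 0.0787). In fresh crypts Slc46a1 lay the other way at 1.48, and the difference between the contrasts was -2.87 (adjusted p = 5.72e-05, edgeR).

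Sodium, chloride and water transport was divided, with 12 of 35 genes higher in LI and 11 higher in SI (median -0.20). The genes higher in LI included 2 of the 3 subunits of the epithelial sodium channel. Scnn1a, the α subunit, had 9.902, 10.4 and 11.3 CPM in the SI libraries and 106, 113 and 117 CPM in the LI libraries. Scnn1b, the β subunit, was at 0 in all SI libraries and at 0.406, 0.205 and 0.235 CPM in the LI libraries, at least 20.1-fold higher in LI. Scnn1g, the γ subunit, was at 0 in all SI libraries and at 0.145, 0 and 0 CPM in the LI libraries and was not called (adjusted p = 0.0901, edgeR). Nr3c2, the mineralocorticoid receptor, and Hsd11b2, which protects it from cortisol-like steroids, were called at -1.02 and -1.11, calls lost in 4 and 3 of the 6 fits without 1 library, at log2 fold changes of -0.964 to -0.998 and -0.90 to -0.99. Atp12a (ENSMUSG00000022229.3, chr14:56365068-56388550), the colonic proton-potassium pump, had 3.11, 2.87 and 2.31 CPM in the SI libraries and 347, 349 and 360.0 CPM in the LI libraries, a log2 fold change of -6.99 ± 0.28 (SE). Aqp8, a water channel of the colon surface, had 4.13, 3.61 and 1.48 CPM in the SI libraries and 289, 295 and 278 CPM in the LI libraries. Car2, a carbonic anhydrase, had 7.73, 7.67 and 5.21 CPM in the SI libraries and 69.4, 74.9 and 78.98 CPM in the LI libraries. SI replicate 3 was the lowest SI library for Atp12a, Aqp8 and Car2, and all SI libraries lay below all LI libraries. Slc26a3, the chloride-bicarbonate exchanger, was higher in LI at -1.47 and its relative Slc26a6 higher in SI at 4.41. Slc9a2 and Slc9a3, both sodium-proton exchangers, lay at -1.22 and 3.97. Of 6 aquaporins, 5 were higher in SI, among them Aqp1 with 30.6, 29.3 and 30.9 CPM in the SI libraries and 3.16, 4.42 and 6.19 CPM in the LI libraries. Cftr, the chloride channel of crypts, had 89.9, 81.2 and 77.3 CPM in the SI libraries and 16.7, 17.1 and 18.3 CPM in the LI libraries. A pair of neighbouring chloride channel regulators split, since Clca4b was higher in SI and Clca4a higher in LI. Clca4b had 806, 772 and 771 CPM in the SI libraries and 24.4, 27.1 and 23.2 CPM in the LI libraries. Clca4a had 28.3, 23.996 and 27.7 CPM in the SI libraries and 248, 269.9 and 262 CPM in the LI libraries. They are similar copies, and reads may be shared between them.

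Cytochrome P450 genes and their regulators were higher in SI in 21 of 27 tested cases and higher in LI in 3, with a median of 3.04. Cyp3a11 (ENSMUSG00000056035.8, chr5:145854426-145879964), the main murine counterpart of the human drug-oxidizing CYP3A4, had 147, 138 and 135 CPM in the SI libraries and 0.899, 1.52 and 0.853 CPM in the LI libraries, a log2 fold change of 7.02 ± 0.43 (SE) (adjusted p = 1.02e-06, edgeR). Its mean LI level was 0.780% of its mean SI level. Cyp3a13 had 552, 538 and 526 CPM in the SI libraries and 88.3, 89.7 and 85.9 CPM in the LI libraries, a log2 fold change of 2.61 ± 0.09 (SE), with a mean LI level of 16.3% of its mean SI level. Cyp3a44 was at 0 in all LI libraries and at least 10.9-fold higher in SI, and Cyp3a41a and Cyp3a41b, with 26 counts and 1 count over the 12 libraries, did not pass the filter. Of 13 Cyp2 genes 11 were higher in SI (median 3.35), and all 4 Cyp4 genes, which oxidize fatty acids and related lipids, were higher in SI (median 2.82). Cyp2b10, a target of the receptor CAR, had 154, 142 and 136 CPM in the SI libraries and 1.65, 2.51 and 1.77 CPM in the LI libraries. Nr1i2, the xenobiotic receptor PXR that induces Cyp3a11, had 56.2, 59.9 and 58.8 CPM in the SI libraries and 33.3, 30.1 and 28.2 CPM in the LI libraries and was not called (0.93). Nr1i3, the receptor CAR itself, had 3.38, 3.97 and 4.904 CPM in the SI libraries and 0.159, 0.171 and 0.0294 CPM in the LI libraries, a log2 fold change of 5.09 ± 0.37 (SE). The groups did not overlap for either receptor.

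The 3 cytochromes higher in LI were Cyp2d34, Cyp1a1 and Cyp1b1. Cyp2d34 had 2.36, 1.89 and 0.975 CPM in the SI libraries and 108, 98.8 and 84.1 CPM in the LI libraries, a log2 fold change of -5.801 ± 0.28 (SE). Cyp1a1, the target of the aryl hydrocarbon receptor, had 1.23, 0.76 and 0.697 CPM in the SI libraries and 11.5, 10.8 and 8.33 CPM in the LI libraries. Cyp1b1, another target, had 0.0583, 0.0543 and 0.111 CPM in the SI libraries and 0.652, 0.82 and 0.677 CPM in the LI libraries. In fresh crypts Cyp1a1 and Cyp1b1 were higher in SI, at 8.92 and 5.82, and the difference between the contrasts was called for both (-12.44 and -9.05). Ahr, the receptor itself, did not reach the minimum fold change in monolayers (-0.47).

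Drug conjugation genes were higher in SI in 23 of 32 cases and not called in 9, with a median of 1.95. Glutathione S-transferases made up 11 of the 23. Gstm3 (ENSMUSG00000004038.9, chr3:107963696-107969283) had 957, 957 and 977 CPM in the SI libraries and 6.32, 9.15 and 8.62 CPM in the LI libraries, a log2 fold change of 6.91 ± 0.30 (SE) (adjusted p = 6.84e-08, edgeR). Gstm1 had 646, 658 and 688 CPM in the SI libraries and 11.7, 15.1 and 14.3 CPM in the LI libraries. All 7 UDP-glucuronosyltransferases, which attach glucuronic acid to drugs such as the active metabolite of irinotecan, were higher in SI (median 2.66), and Ugt1a1 had 8.88, 7.77 and 8.19 CPM in the SI libraries and 1.77, 2.08 and 1.62 CPM in the LI libraries. Ugt1a genes share their last exons, so their counts cannot be fully separated. Nqo1, a quinone reductase of the antioxidant response, had 56.5, 55.3 and 61.5 CPM in the SI libraries and 18.6, 20.4 and 22.7 CPM in the LI libraries. Tpmt, which inactivates thiopurines, lay at the threshold with a log2 fold change of 1.04, a call lost without LI replicate 1. The enzymes Gsto1 and Mgst3 and the sulfotransferases Sult2b1 and Sult1c2 were not called.

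Among drug transporters and esterases 17 of 27 were higher in SI and 1 in LI (median 2.19). All 9 carboxylesterases, which open ester prodrugs, were higher in SI (median 3.60), led by Ces2a with 749, 730.4 and 746 CPM in the SI libraries and 12.6, 16.8 and 14.1 CPM in the LI libraries. Among the 9 ABC transporters 3 were higher in SI and 1 in LI. Abcg2, the breast cancer resistance protein, had 85.2, 81.5 and 80.95 CPM in the SI libraries and 27.2, 25.4 and 25.4 CPM in the LI libraries, a log2 fold change of 1.67 ± 0.07 (SE). Abcb1a, which codes for P-glycoprotein, had 390.2, 370.4 and 369 CPM in the SI libraries and 496, 482 and 493 CPM in the LI libraries and was not called (log2 fold change -0.38 ± 0.18 (SE), adjusted p = 0.104, edgeR). Abcc4, an exporter of nucleotides and nucleoside drugs, was higher in LI, with 23.5, 23.1 and 22.97 CPM in the SI libraries and 84.1, 81.05 and 86.2 CPM in the LI libraries. Replicates differed by little within each group for all 3 exporters. The nucleoside carrier Slc28a2 had a log2 fold change of 2.76, and Slc29a1, the equilibrative carrier of nucleoside drugs, was not called at 0.64.

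The EGF receptor family and its feedback genes leaned to LI, with 7 of 25 higher in LI and 4 in SI (median -0.35), against 8.88% and 12.4% of all tested genes. Egfr had 71.4, 71.1 and 70.8 CPM in the SI libraries and 196, 194 and 196 CPM in the LI libraries, a log2 fold change of -1.46 ± 0.06 (SE) (adjusted p = 1.3e-11, edgeR), and the values within a group were nearly the same. Erbb2 had 146, 147 and 149 CPM in the SI libraries and 182, 194 and 185 CPM in the LI libraries, with no overlap between groups but a log2 fold change of -0.35, and Erbb3 lay at -0.77. Lrig1, a feedback inhibitor that lowers EGF receptor levels, had 90.2, 98.3 and 98.03 CPM in the SI libraries and 45.7, 45.5 and 45.9 CPM in the LI libraries, a log2 fold change of 1.06 ± 0.06 (SE). Among ligands, Btc was higher in SI (2.105) and Hbegf and Nrg1 higher in LI (-1.29 and -2.26), while Areg, Ereg and Tgfa were not called. Egf was also called higher in SI. Among the fits without 1 library it kept this call only without SI replicate 2, and its log2 fold change was 0.587 without SI replicate 1. The feedback genes Spry2, Spry4 and Dusp6 were higher in LI at -2.25, -1.87 and -1.76, whereas Dusp4, Dusp5, Errfi1, Etv4 and Etv5 were not called.

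**Figure D4:**
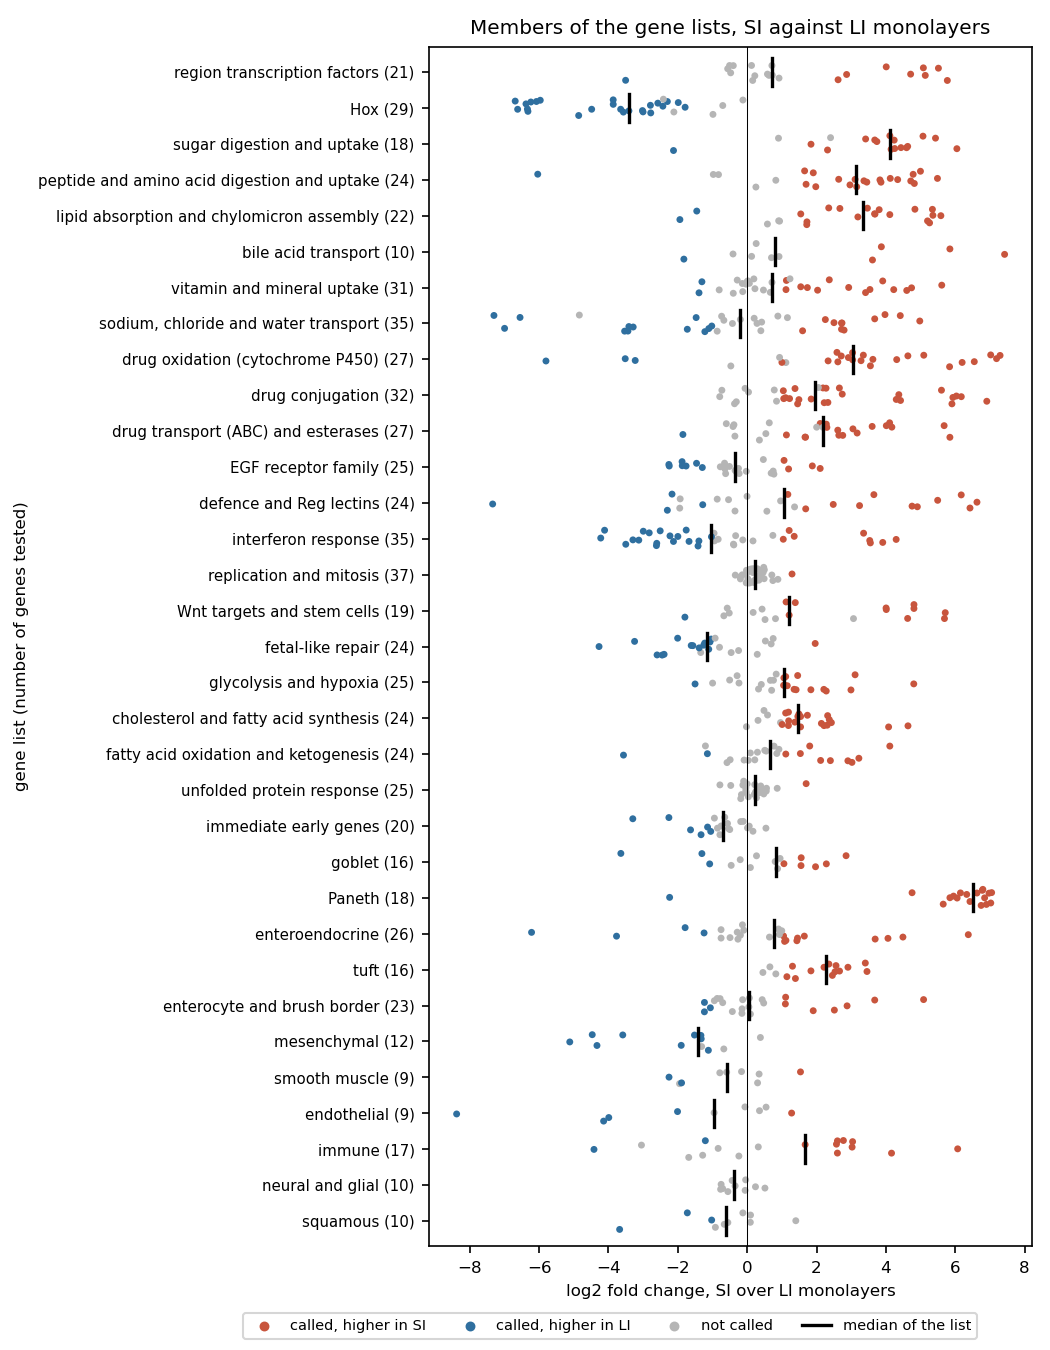
Log2 fold change, SI over LI monolayers (horizontal axis), of every tested member of the 33 gene lists (rows, number of tested genes in brackets), with called members in red (higher in SI) or blue (higher in LI), members not called in grey and the median of each list as a black line. The Paneth, sugar, lipid and peptide lists lie on the SI side, the Hox list on the LI side, and the replication and unfolded protein response lists around 0.

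Paneth cell products had the largest median of the 33 lists, 6.52, with 17 of 18 genes higher in SI and 1 in LI. Lyz1 (ENSMUSG00000069515.6, chr10:117287797-117292868), lysozyme, had 3084, 2991 and 3187 CPM in the SI libraries and 24.4, 29.3 and 29.8 CPM in the LI libraries, a log2 fold change of 6.79 ± 0.70 (SE) (adjusted p = 4.37e-05, edgeR). All 11 α-defensins were higher in SI, with log2 fold changes of 5.95 to 7.05, and Mmp7, the protease that activates them, had 77.3, 80.6 and 84.1 CPM in the SI libraries and 1.28, 1.67 and 1.28 CPM in the LI libraries. All 18 genes were detected in every LI library. Nupr1, a stress-response gene on the list, was the exception, with 103, 102 and 114 CPM in the SI libraries and 532, 489.8 and 480.4 CPM in the LI libraries. The immune markers given above, which were also more abundant in SI, include the lysozyme copy Lyz2.

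Defence genes and Reg lectins were higher in SI in 11 of 24 cases and in LI in 4 (median 1.07). Reg3g, an antibacterial lectin, had 255, 248 and 257 CPM in the SI libraries and 2.72, 7.55 and 6.71 CPM in the LI libraries, and Reg3a, Reg3b and Reg1 lay at 6.17, 3.65 and 4.91. Nos2, the inducible nitric oxide synthase, had 127, 132 and 138 CPM in the SI libraries and 14.4, 13.9 and 13.7 CPM in the LI libraries, and in fresh crypts it lay in the other direction (-1.42). Slpi and Lypd8, which keeps flagellated bacteria from the colon surface, were higher in LI, and Lypd8 had 575, 581 and 566 CPM in the SI libraries and 1529.7, 1427 and 1228 CPM in the LI libraries. The serum amyloid genes Saa1 and Saa3 were higher in LI too (-2.301 and -2.17), though Saa1 varied among the SI libraries (3.97, 4.699 and 0.223 CPM).

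Goblet cell genes lay on both sides, with 6 of 16 higher in SI, 3 in LI and a median of 0.84. Muc2, the gel-forming mucin, had 78.7, 72.9 and 68.7 CPM in the SI libraries and 202, 139 and 203 CPM in the LI libraries, a log2 fold change of -1.31 ± 0.18 (SE) (adjusted p = 0.000148, edgeR). Klk1, a kallikrein protease, had 25.8, 24.2 and 25.8 CPM in the SI libraries and 315, 312 and 319 CPM in the LI libraries. Every LI library lay above every SI library for both genes, and the opposite held for the next pair. Fcgbp, a mucus network protein, had 1971, 1967 and 1925 CPM in the SI libraries and 257, 262 and 293 CPM in the LI libraries. Tff3, a trefoil peptide, had 1204, 1138 and 1198 CPM in the SI libraries and 401, 387 and 419 CPM in the LI libraries, and Agr2, Spink4, Ccl6 and Clca1 completed the genes higher in SI. The fate regulators Atoh1 and Spdef lay at 0.81 and 0.09 and were not called. In fresh crypts 13 of the 16 genes were higher in LI (median -1.42), and the difference between the contrasts was called for 11 of 16.

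Enteroendocrine genes were split by hormone, with 10 of 26 higher in SI and 4 in LI (median 0.77). Gip, the hormone of K cells, whose promoter is shown above, had 63.5, 64.9 and 66.3 CPM in the SI libraries and 0.493, 0.99 and 0.883 CPM in the LI libraries, a log2 fold change of 6.37 ± 0.40 (SE). Ghrl, Sst and Cck lay at 4.49, 3.69 and 1.65. Insl5, a hormone of colonic L cells, had 0.613, 0.625 and 0.557 CPM in the SI libraries and 47.3, 42.9 and 43.6 CPM in the LI libraries. Pyy, another L cell hormone, was higher in LI as well (-3.77). Gcg, which codes for GLP-1 and is made in both regions, was not called (-0.75). Chga, the granin used to mark these cells, had 78.5, 79.8 and 86.4 CPM in the SI libraries and 203, 193 and 182 CPM in the LI libraries, a log2 fold change of -1.24 ± 0.17 (SE), and lay the other way in fresh crypts (1.21). Neurog3, the factor that starts this fate, had 1.74, 1.48 and 1.76 CPM in the SI libraries and 0.0725, 0.137 and 0.0883 CPM in the LI libraries.

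Tuft cell genes, which belong to a rare chemosensory cell, were higher in SI in 13 of 16 cases and not called in 3 (median 2.29). Pou2f3, the tuft cell factor, had 2.17, 1.56 and 2.03 CPM in the SI libraries and 0.145, 0.137 and 0.235 CPM in the LI libraries. Dclk1, a kinase used as a tuft marker, had 8.88, 8.72 and 8.596 CPM in the SI libraries and 3.45, 3.36 and 3.77 CPM in the LI libraries. Neither gene had overlapping groups. Of 23 enterocyte and brush border genes 7 were higher in SI and 3 in LI (median 0.05). Alpi, intestinal alkaline phosphatase, had 282, 273 and 285 CPM in the SI libraries and 20.1, 23.1 and 22.5 CPM in the LI libraries. Guca2b, uroguanylin, had 622, 593 and 614 CPM in the SI libraries and 16.4, 20.4 and 17.1 CPM in the LI libraries. Both were higher in every SI library. Ezr and Cdhr2, which anchor and link microvilli, were higher in LI (-1.23 and -1.23), as was Tjp1, the tight junction scaffold, with 305, 300.1 and 309 CPM in the SI libraries and 633, 631 and 645 CPM in the LI libraries. The shared structural genes Vil1, Pls1, Myo7b and Cdhr5 were not called. The median of this list, 0.05, was close to the 0.02 of all tested genes. The sugar, peptide and lipid lists, which also hold genes outside the brush border, had medians of 3.13 to 4.13. Other lists with carriers had medians of 2.19 (drug transporters and esterases), 0.81 (bile acids), 0.72 (vitamins and minerals) and -0.20 (sodium, chloride and water).

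Replication and mitosis genes were rarely called, with 1 of 37 higher in SI and 36 not called. Differences under the fold change limit leaned to SI. At an unadjusted p under 0.05 (edgeR), 21 of the 37 lay towards SI and 3 towards LI. The list summed to 3693 to 3720 CPM in SI monolayers and 2972 to 3181 CPM in LI monolayers. Mki67, the marker of cycling cells, had 136, 139 and 134 CPM in the SI libraries and 153, 122 and 141 CPM in the LI libraries, and the groups overlapped (log2 fold change -0.03 ± 0.08 (SE), adjusted p = 0.815, edgeR). Pcna and Top2a lay at 0.19 and 0.23, and the median of the list was 0.23. Ccnd2, a cyclin of the G1 phase, was the called member, with 494, 494 and 475 CPM in the SI libraries and 198, 206 and 194 CPM in the LI libraries, while Ccnd1 lay at -0.34. By contrast, 10 of 19 Wnt target and stem cell genes were higher in SI and 1 in LI (median 1.21). Lgr5 (ENSMUSG00000020140.15, chr10:115450311-115587780), the R-spondin receptor of crypt stem cells, had 10.9, 11.3 and 9.89 CPM in the SI libraries and 0.203, 0.478 and 0.471 CPM in the LI libraries, a log2 fold change of 4.81 ± 0.23 (SE) (adjusted p = 8.45e-11, edgeR). Ascl2, a transcription factor of the same cells, had 6.402, 5.91 and 5.74 CPM in the SI libraries and 0, 0.205 and 0.147 CPM in the LI libraries. LI replicate 1 was the lowest library for both genes. Smoc2, Axin2, Tnfrsf19 and Sp5 lay between 4.005 and 4.81, whereas Rnf43, Sox9 and Nkd1 lay between 1.12 and 1.39 and Ephb2, Lgr4 and Znrf3 were not called. Prom1 was the gene higher in LI, with 137, 137 and 138 CPM in the SI libraries and 463, 484 and 481 CPM in the LI libraries. Both groups received Wnt3a and R-spondin-1 in the medium.

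Genes of a fetal-like repair state, which injured epithelium switches on, were higher in LI in 14 of 24 cases and in SI in 1 (median -1.17). Ly6a, the marker Sca-1, had 341, 333 and 361 CPM in the SI libraries and 2091, 2097 and 2076 CPM in the LI libraries, a log2 fold change of -2.598 ± 0.16 (SE) (adjusted p = 1.69e-07, edgeR). The annexins Anxa1, Anxa3 and Anxa8 lay at -3.25, -1.61 and -4.27, and all 3 were higher in LI. Krt7, a keratin, had 2063, 2064 and 2137 CPM in the SI libraries and 4779, 4809.8 and 5037 CPM in the LI libraries. Clu, a marker of revival cells, had 204, 214 and 216 CPM in the SI libraries and 153, 141 and 148 CPM in the LI libraries and was not called, and Il33, an alarm cytokine, was higher in SI (1.96). In fresh crypts 11 of the 24 genes were higher in LI.

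Interferon-related genes split by branch. Of 35 tested, 18 were higher in LI and 8 in SI, with a median of -1.03. All 5 MHC class II genes, which present antigen to T cells and include their regulator Ciita, were higher in SI (log2 fold changes of 3.36 to 4.30), although the Ciita call was lost without LI replicate 1. Cd74, the invariant chain, had 105, 102 and 108 CPM in the SI libraries and 4.15, 5.21 and 6.64 CPM in the LI libraries. Of the other 30 genes 18 were higher in LI and 3 in SI (median -1.55). Oas2, an antiviral enzyme, had 0.292, 0.272 and 0.334 CPM in the SI libraries and 7.58, 5.93 and 3.34 CPM in the LI libraries, a log2 fold change of -4.22 ± 0.40 (SE). Isg15, a ubiquitin-like modifier, had 4.45, 3.78 and 3.78 CPM in the SI libraries and 44.4, 33.2 and 17.98 CPM in the LI libraries. Ifit1, an antiviral RNA-binding protein, had 3.81, 4.69 and 3.62 CPM in the SI libraries and 24.6, 20.4 and 11.7 CPM in the LI libraries. For these 3 genes LI replicate 3 was the lowest of its group but still above every SI library. In fresh crypts the 5 class II genes were not called by edgeR and lay between -1.25 and -0.35, whereas 21 of the other 30 were higher in LI. Immune cells express class II genes as well, and Ptprc, which all leukocytes carry, had 2.16, 2.69 and 2.42 CPM in the SI libraries and 0.667, 0.99 and 0.647 CPM in the LI libraries. The B cell and macrophage genes Ms4a1, C1qa and C1qb were not called. Cd79a and Csf1r, of the same cell types, were called higher in LI. Both calls were lost in fits without 1 library, that of Csf1r without SI replicate 3 (log2 fold change -0.986). The part of immune cells in the class II values was not tested.

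Metabolic lists leaned to SI in the cultures. Of 25 glycolysis and hypoxia genes 14 were higher in SI and 1 in LI (median 1.06). Ldha, lactate dehydrogenase, had 3719.8, 3699.6 and 3690.1 CPM in the SI libraries and 1766, 1758 and 1841 CPM in the LI libraries. Slc16a3, the lactate exporter, had 252, 257 and 262 CPM in the SI libraries and 9.75, 8.85 and 9.005 CPM in the LI libraries, a log2 fold change of 4.803 ± 0.19 (SE). Hk1, a hexokinase, was higher in LI with 87.6, 85.6 and 88.1 CPM in the SI libraries and 242, 245 and 254 CPM in the LI libraries. Of 24 cholesterol and fatty acid synthesis genes 19 were higher in SI and 5 were not called (median 1.48). Hmgcs1, which starts the mevalonate pathway, had 467, 467 and 437 CPM in the SI libraries and 124, 139.5 and 148 CPM in the LI libraries. Scd2, a desaturase, had 1570.4, 1601 and 1603 CPM in the SI libraries and 52.9, 58.01 and 81.03 CPM in the LI libraries. The SI libraries lay above the LI libraries for both genes, while the libraries overlapped for their regulator Srebf2 (-0.02). Fatty acid oxidation and ketogenesis had 9 of 24 genes higher in SI and 2 in LI (median 0.66), and Ppara, the nuclear receptor of this program, had 15.6, 13.7 and 13.8 CPM in the SI libraries and 1.62, 2.07 and 1.63 CPM in the LI libraries. Cpt1a, which admits fatty acids to mitochondria, was higher in LI (-1.15), and Pdk4, the other gene higher in LI, kept its call only without LI replicate 3. The unfolded protein response had 1 of 25 genes called, Trib3 (1.700), and immediate early genes had 6 of 20 higher in LI and 14 not called (median -0.70), among them Ier3 with 45.2, 46.6 and 48.03 CPM in the SI libraries and 219, 217 and 232 CPM in the LI libraries.

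How much of this regional difference was also measured in fresh crypts was compared over the same 19581 genes. In tissue 4446 genes (22.7%) were called, 2265 higher in SI and 2181 higher in LI. Of the 2420 genes higher in SI monolayers, 1129 (46.7%) were higher in SI tissue, 167 (6.90%) were higher in LI tissue and 1124 (46.4%) were not called in tissue. The 1129 shared genes were 49.8% of the 2265 genes higher in SI tissue. Of the 1739 genes higher in LI monolayers, 863 (49.6%) were higher in LI tissue, 104 (5.98%) were higher in SI tissue and 772 (44.4%) were not called there, and the 863 shared genes were 39.6% of the 2181 genes higher in LI tissue. The difference between the contrasts itself, the interaction of region and preparation, was called for 3909 genes (20.0%), 2242 of them (11.4%) with SI higher relative to LI in monolayers than in tissue and 1667 (8.51%) with SI lower. Of the genes higher in SI monolayers but not called in tissue the interaction was called for 711 of 1124, and of those higher in LI monolayers but not called in tissue for 448 of 772, and for the rest a missing call in tissue does not show a difference between monolayers and tissue.

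The lists fell into several patterns in this comparison. Hox, Paneth, sugar, peptide, lipid and tuft genes kept the direction of their medians, at -3.41, 6.52, 4.13, 3.13, 3.33 and 2.29 in monolayers and -3.80, 7.60, 5.02, 4.22, 4.78 and 2.92 in tissue, and the interaction was called for 4 of 29, 2 of 18, 8 of 18, 15 of 24, 12 of 22 and 5 of 16 members. Drug conjugation, cholesterol synthesis, glycolysis and goblet genes had medians of 1.95, 1.48, 1.06 and 0.84 in monolayers and -0.10, -0.60, -0.07 and -1.42 in tissue, and the interaction was called for 23 of 32, 21 of 24, 16 of 25 and 11 of 16 members. Gstm1, for example, lay at 5.602 in monolayers and -1.13 in tissue, and Scd2 at 4.64 and -3.15. Lgr5 and Ascl2 lay at 4.81 and 5.71 in monolayers and 1.23 and 0.28 in tissue, with a called interaction for both. Fresh crypts and monolayers also differed in their cell makeup and handling, and culture and cell makeup cannot be told apart here. The SI tissue libraries were uneven, with Paneth list sums from 5858 to 29449 CPM. Mitochondrially encoded genes took 4.56% to 9.16% of the counts in SI tissue and 2.25% to 2.59% in LI tissue.

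**Figure D5:**
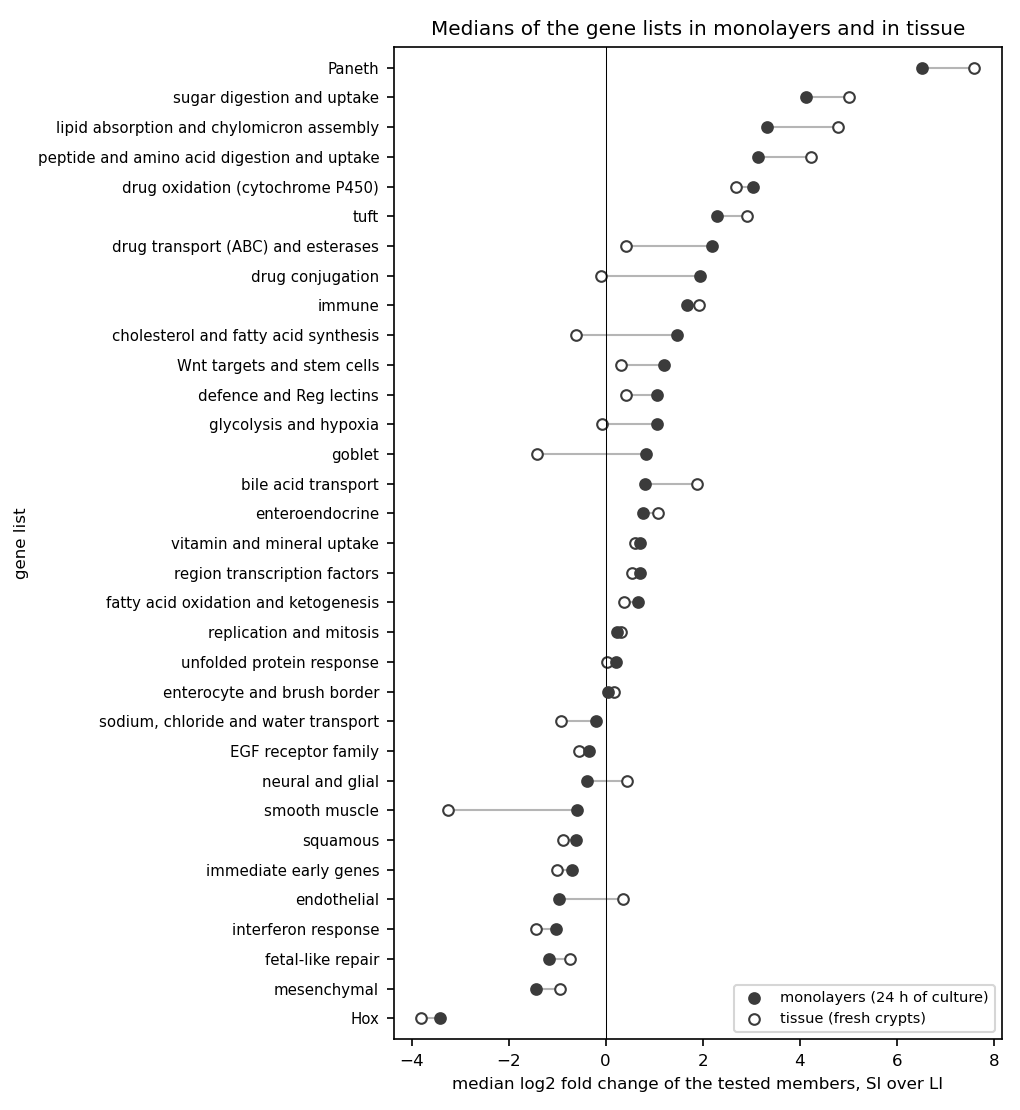
Median log2 fold change, SI over LI, of the tested members of each gene list (rows) in monolayers after 24 h (filled circles) and in tissue (open circles), joined by a line. The filled circles of drug conjugation (1.95), cholesterol synthesis (1.48) and goblet genes (0.84) lie right of 0 while their open circles lie at -0.10, -0.60 and -1.42, and both circles of the Hox list lie on the LI side.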

How the data were processed

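RNA of 3 SI monolayer and 3 LI monolayer libraries, each from pooled wells after 24 h of culture, was measured together with 6 libraries of fresh crypts. The deposited table holds raw counts per gene, which the authors made by aligning paired Illumina HiSeq reads to GRCm38 with STAR (version 2.7.9a) and counted with featureCounts (version 2.0.2) on GENCODE genes. The strand setting and the counting of mates are not given in the sources used here. Even values made up 75.4% to 77.4% of the counts from 1 to 20, so a fragment may stand for 2 counts, and detection limits cover counting error only. The fold bounds for genes without a count in 1 group take 3 counts as the limit and the mean of the other group. They would be lower if a fragment stood for 2 counts. A second deposited table holds the same counts scaled by the authors with DESeq2 and was not used. Samples were grouped by their titles.

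Genes were filtered with filterByExpr, which left 19581 of 55487, scaled by TMM and tested with edgeR's quasi-likelihood test (edgeR 4.0.16, limma 3.58.1, R 4.3.3) in 1 model of 4 groups, which therefore share 1 estimate of the spread per gene, so that a standard error can exceed the scatter within the monolayers. P-values are two-sided and adjusted over the 19581 genes by the Benjamini-Hochberg method, and the interaction is the SI over LI difference in monolayers minus that in tissue. The depth of 59016196 to 71963600 counts per monolayer library limits rare transcripts only. The genes named by rule are those the study measured as RNA or protein, the 10 with the largest change in each direction at a mean of at least 10 CPM and without overlap, and of each of 33 lists the preset anchors and the members with the largest called change. All other example genes were chosen once their values had been seen. Some members are counted in their lists but not reported here. The members and lists were chosen with earlier results of these data known. Replicate numbers did not pair the samples, since the deviations of equally numbered SI and LI libraries correlated at -0.0169, 0.0353 and 0.0133. Alternatives were DESeq2 (version 1.42.0), upper quartile scaling, other filters, calls without a fold change limit, a fit of the SI and LI monolayers alone, halved counts, a replicate block and each library left out. Gene positions are those of GENCODE on GRCm38 and promoters those of RefSeq, with chromosome 18 not used here. The scripts were tested on simulated data.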

Additional observations from a re-analysis of the deposited data

Results flagged for a closer look

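For 51 of the 126 tested genes named by rule, the regional difference in monolayers differed from that in fresh crypts by a test of the difference itself (edgeR, interaction of region and preparation). Over all tested genes this test called 20.0%. Each value given for them here is the log2 fold change of SI over LI in monolayers minus that in tissue, so a positive value means that SI stood higher relative to LI in culture than in tissue. No cause was tested.

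Of the 6 genes called in opposite directions, 3 were higher in SI monolayers and in LI tissue, namely Scd2, a desaturase (7.78), Fcgbp, a mucus protein (3.91), and Clca1, a goblet cell product (2.38). The reverse held for the folate carrier Slc46a1 (-2.87), the granin Chga (-2.45) and Lor, loricrin (-4.81).

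Called as higher in SI monolayers and not called in tissue were the stem cell factor Ascl2 (5.43), the phospholipase Pla2g2a (6.01), the invariant chain Cd74 (5.22), the ligand Btc (2.74), the transferase Gsta4 (2.45), Hmgcs1 of the mevalonate pathway (2.36), Lrig1 (1.65), the exporter Abcg2 (1.28) and Ccnd2 (1.05). Higher in SI in both preparations, with a larger difference in monolayers, were Gstm3 (4.95), Cybrd1 (4.03), Clca4b (3.68), Lgr5 (3.58), Lyz2 (3.39), Slc16a3 (2.33) and Cyp2c66 (2.26). With a larger difference in tissue, they were Slc6a19 (-4.33), Fabp1 (-3.99), Reg1 (-3.01), Il33 (-2.52), Dclk1 (-1.16) and Gata5 (-1.14).

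Called as higher in LI monolayers and not called in tissue were Cdh5 (-9.18, a fitted value with SI monolayers at 0 and no bound), Tgm7 (-6.56), Cd79a (-5.42), Crnn (-4.51), Nrg1 (-2.496), Plin2 (-1.32), Ezr (-1.27), Tjp1 (-1.15) and Prom1 (-1.05). Higher in LI in both preparations were Cxcl5 (-4.75) and Oas2 (-1.903), with a larger difference in monolayers, and Ly6a (2.94), Cyp2d34 (2.404), Slc6a14 (2.17), Hk1 (1.86) and Aqp8 (1.72), with a larger difference in tissue.

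Not called in monolayers but higher in SI tissue, with Lct and Olfm4 called in monolayers when only these were fitted, were Lct (-6.398), Olfm4 (-6.07) and the granin Chgb (-1.53). Not called in monolayers but higher in LI tissue were the immediate early genes Fos (2.15) and Jun (1.84), and Hk2 (1.53), which DESeq2 called higher in LI monolayers. The vessel gene Pecam1 (-1.32) was called in neither contrast.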

How the results depend on the processing

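The count of genes called between SI and LI monolayers, 4159, was 4243 with DESeq2, 4158 with upper quartile scaling, 4239 without a filter on low counts, 3860 with only the 2 groups in the fit and 3839 with halved counts. With at least 10 counts in each monolayer library, which tests fewer genes, 2687 genes were called (1540 higher in SI and 1147 higher in LI), and 2894 in tissue. Without a minimum fold change 10145 genes passed (5278 higher in SI and 4867 higher in LI), with 10558 in tissue and 9069 for the interaction. With the replicate number as a block, although the numbers did not pair the samples, 4008 genes were called (2331 higher in SI and 1677 higher in LI), with 4311 in tissue and 3672 for the interaction. Leaving out 1 monolayer library at a time gave 4022 to 4073 genes, 2384 to 2452 of them higher in SI and 1610 to 1667 higher in LI, with 4569 to 4621 in tissue and 3720 to 3863 for the interaction.

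Of the 104 genes named by rule and called, 5 lost their call in at least 1 of these 6 fits (Acta2, Cd79a, Col1a2, Gpbar1 and Pdk4), and of all 505 called members of lists and families 36 did. Without the filter on low counts, Acta2, Cd79a and Pdk4 lost their call too (adjusted p = 0.0563, 0.0852 and 0.0692, edgeR). With halved counts 2 genes named by rule lost their call, and with the replicate block 2 did. Of the genes named by rule and not called, 5 gained a call under an alternative other than the removal of the fold change limit. These were Lct and Olfm4 with only the 2 groups in the fit (adjusted p = 0.0102 and 0.0325) and with halved counts (0.0346 and 0.0308), Lct with at least 10 counts in each monolayer library (0.0425), Krt5 with only the 2 groups (0.0372) and without SI replicate 1 (0.0413), Hk2 with DESeq2, without the filter and without LI replicate 1 (log2 fold changes of -1.03, -1.03 and -1.001), and Pecam1 without LI replicate 3 (-1.10), all edgeR but for DESeq2. Values near 0 changed sign. Fos lay at -0.0222 with DESeq2 and -0.0201 without the filter. Mki67 lay at 0.00489 with the filter of at least 10 counts, and at 0.00157 without SI replicate 1, 0.0182 without SI replicate 3, 0.0729 without LI replicate 1 and 0.0195 without LI replicate 3, with -0.0805 without LI replicate 2. The cause was not tested. Levels under 3 counts (0.0407 to 0.0512 CPM) cannot be told from 0, and 3 pools per region of unstated origin limit what the spread covers.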

Other observations

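Several further gene families, chosen after their values were seen and so given as a description, also differed between the monolayers. Of 14 genes of citrulline and arginine synthesis, a pathway of the small intestine that feeds arginine to the body, 7 were higher in SI (median log2 fold change 0.76). Cps1, carbamoyl phosphate synthase, had 376, 369 and 366 CPM in the SI libraries and 2.51, 7.02 and 5.64 CPM in the LI libraries. Otc, the next enzyme, had 69.6, 64.6 and 63.2 CPM in the SI libraries and 0.319, 1.14 and 1.07 CPM in the LI libraries. Each SI library lay far above each LI library for both. Agmat, Nags, Arg2, Oat and Aldh18a1 had log2 fold changes of 6.902, 5.08, 4.76, 2.63 and 1.39, while Ass1, which uses citrulline up, was not called (-0.37). In retinoid metabolism 8 of 18 genes were higher in SI and 4 in LI, and the retinaldehyde dehydrogenases split. Aldh1a1 had 374, 353 and 344 CPM in the SI libraries and 16.97, 17.3 and 17.3 CPM in the LI libraries. Aldh1a3 had 40.5, 38.3 and 39.7 CPM in the SI libraries and 871, 848 and 782 CPM in the LI libraries. In fresh crypts neither was called (0.52 and 0.94), and the interaction was called for both. Butyrophilin-like genes, which hold intraepithelial γδ T cells in the small intestine, were higher in SI in 4 of 5 cases, led by Btnl1 with 71.1, 72.2 and 78.2 CPM in the SI libraries and 1.03, 2.15 and 1.69 CPM in the LI libraries, in the same libraries in which all 6 T cell genes were higher.

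Among claudins, the tight junction proteins, 4 of 15 were higher in SI and 5 in LI. Cldn2, which forms a pore for cations, had 387, 378 and 384 CPM in the SI libraries and 6.15, 5.84 and 5.503 CPM in the LI libraries. Cldn4, a sealing claudin, had 1129, 1142 and 1170.1 CPM in the SI libraries and 2822, 2758 and 2721 CPM in the LI libraries. In tissue neither was called (-0.69 and 0.63), and the interaction was called for both (6.72 and -1.899). Of 9 Cxcl chemokines 6 were higher in LI and 2 in SI (median -4.37), with the call of Cxcl14 in LI lost in 5 of the 6 fits without 1 library and that of Cxcl10 in SI lost without LI replicate 1 (log2 fold change 0.897), which leaves 1 higher in SI. Cxcl1, which attracts neutrophils, had 0.0875, 0.109 and 0.0836 CPM in the SI libraries and 7.81, 7.09 and 6.39 CPM in the LI libraries. Laminin chains, which build the basement membrane, were higher in LI in 6 of 9 cases (median -1.38), and Lama3 had 10.2, 10.2 and 9.04 CPM in the SI libraries and 124, 134 and 142 CPM in the LI libraries. Collagen chains were higher in LI in 16 of 31 cases and in SI in 4 (median -1.23), beside mesenchymal sums of 30.8 to 47.6 CPM in SI and 90.6 to 124 CPM in LI, whose part was not tested. Ly6g of the Ly6 family, whose members are similar copies, had 2.83, 3.86 and 3.04 CPM in the SI libraries and 176, 171 and 169 CPM in the LI libraries. Of 316 solute carriers 70 were higher in SI and 37 in LI, against 12.4% and 8.88% of all tested genes. None of the 80 ribosomal protein genes and 36 complex I subunits was called, and their medians were 0.23 and 0.46.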
